A study of Mus musculus with 4 samples.

Results

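The genes described here are 42 genes of the mouse cell cycle, taken by symbol out of the 32285 genes in 4 single-cell RNA libraries of liver non-parenchymal cells. All 42 were found, each is annotated as protein coding, and together they lie on 16 chromosomes of the GRCm38 (mm10) assembly. Cells entered when they held at least 500 unique molecular identifiers (UMIs, the tags that count captured RNA molecules), at least 300 genes and at most 15% mitochondrial UMIs. That left 82905 cells, of which 70011 were kept after removal of computed doublets.

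The 4 groups had 1 library each. A model of fatty liver disease with inflammation and a control diet were set side by side in male C57BL/6J mice that were 8 weeks old at the start. The FAT-MASH group (MASH below) received a Western diet, sugar water and weekly intraperitoneal injections of a low dose of carbon tetrachloride (CCl4), which injures hepatocytes, and the control group received chow. Livers were taken after 24 or 12 weeks, digested with collagenase IV and enriched for non-parenchymal cells on Percoll. Cells were stained with hashtag antibodies (sample barcodes), whose meaning the labels do not give. The kept cells numbered 17832 in MASH and 20784 in chow at 24 weeks, and 15149 in MASH and 16246 in chow at 12 weeks. Median UMIs per kept cell were 3206 in MASH and 2044 in chow at 24 weeks, and 3065 in MASH and 1977 in chow at 12 weeks. With 1 library a group there is no replicate check and no test. The 95% intervals below (exact Poisson for levels, exact binomial for shares and ratios) cover counting error only, so the animals of a group, the preparation and the diet cannot be told apart. Liver cells of the labelled kind were present, and cells with hepatocyte markers made up 3.47% of kept cells in MASH and 9.31% in chow at 24 weeks, and 2.83% in MASH and 8.33% in chow at 12 weeks.

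A cell that divides passes from G1 through DNA synthesis (S phase) and a second gap (G2) into mitosis (M). D cyclins with Cdk4 or Cdk6, and then E cyclins with Cdk2, inactivate the retinoblastoma protein and release E2F factors, which switch on the genes of DNA synthesis. Genes of G2 and mitosis come on later, when the DREAM repressor leaves their promoters and the MuvB complex joins B-Myb and FoxM1 there. Adult hepatocytes are mostly quiescent and divide after injury, while resident macrophages, dendritic cells and lymphocytes renew to different degrees. By these roles the members were split into 3 D cyclins with Cdk6, 2 E cyclins, 14 S genes, 20 G2/M genes and 2 widely expressed genes, Stmn1 and Hmgb2.

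Promoters of the S and G2/M members were searched for short motifs. The 250 bases before the RefSeq transcription start (GRCm38.p6) are shown for the 2 S members and the 2 G2/M members of most UMIs whose window overlaps no exon of the gene annotation. Mcm6 and Mcm3, subunits of the MCM helicase that unwinds DNA at origins, are the S members, and Mki67 and Top2a, the proliferation marker Ki-67 and a topoisomerase that untangles chromosomes, are the G2/M members. The windows are chr1:128359706-128359955 for Mcm6, chr1:20820313-20820562 for Mcm3, chr7:135716380-135716629 for Mki67 and chr11:99024190-99024439 for Top2a. Each is printed 5′ to 3′ on the minus strand, the strand of the gene. Capitals mark, on either strand, TTTGAA (the core of the cell cycle homology region, CHR), CCAAT (the CCAAT box) and TTTNNCGC (an E2F motif).
Mcm6: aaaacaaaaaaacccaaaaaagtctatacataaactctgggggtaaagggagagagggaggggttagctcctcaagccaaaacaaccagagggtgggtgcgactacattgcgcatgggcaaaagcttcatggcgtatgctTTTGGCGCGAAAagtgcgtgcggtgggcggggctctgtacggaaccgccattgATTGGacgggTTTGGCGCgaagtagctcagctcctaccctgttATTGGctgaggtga
Mcm3: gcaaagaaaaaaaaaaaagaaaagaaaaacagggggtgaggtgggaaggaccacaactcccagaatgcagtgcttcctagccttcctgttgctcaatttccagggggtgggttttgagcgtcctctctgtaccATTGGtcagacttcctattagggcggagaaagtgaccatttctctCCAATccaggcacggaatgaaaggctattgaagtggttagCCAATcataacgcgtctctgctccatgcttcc
Mki67: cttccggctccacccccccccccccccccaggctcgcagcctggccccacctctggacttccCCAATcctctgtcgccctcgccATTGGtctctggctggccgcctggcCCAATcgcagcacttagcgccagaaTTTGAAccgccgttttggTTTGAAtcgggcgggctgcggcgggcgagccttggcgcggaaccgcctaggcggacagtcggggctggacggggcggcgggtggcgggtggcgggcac
Top2a: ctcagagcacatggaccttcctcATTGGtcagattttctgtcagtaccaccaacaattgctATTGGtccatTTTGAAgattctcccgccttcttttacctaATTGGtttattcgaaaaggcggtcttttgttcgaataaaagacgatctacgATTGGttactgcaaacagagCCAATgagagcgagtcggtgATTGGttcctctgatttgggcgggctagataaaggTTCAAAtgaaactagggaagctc
Mki67 has 2 CHR matches and 3 CCAAT boxes, and Top2a has 2 CHR matches and 6 CCAAT boxes. Mcm6 has 3 E2F matches, of which 2 overlap each other, with 2 CCAAT boxes, and Mcm3 has 3 CCAAT boxes alone. Promoter entries were found for 33 of the 42 members. The CHR letters were found in 7 of 17 G2/M promoters (Ube2c, Cdc20, Mki67, Ccnb2, Cdk1, Top2a and Kif11) and in 1 of 12 S promoters (Mcm2), against 15.99% of all 32851 mouse promoters. CCAAT was found in 15 of 17 G2/M and 9 of 12 S promoters, against 33.85% of all. The E2F letters were found in 1 of 17 G2/M promoters (Cdk1) and in 3 of 12 S promoters (Mcm6, Mcm7 and Mcm5), against 4.28% of all. These are matches of letters in a window and not measured binding, and the S and G2/M promoters were not tested against each other.

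Cells were clustered without the members and without the wider lists of cycle genes, and clusters were named by marker genes as “like” a cell type. Cycling cells were then read from the G2/M members. Each cell was thinned to 1000 UMIs, and cells with UMIs of at least 3 different G2/M members were counted. Thinning left 16858 cells in MASH and 18239 in chow at 24 weeks, and 13636 in MASH and 13538 in chow at 12 weeks. By this count 1.24% of cells in MASH and 0.570% in chow were G2/M-positive at 24 weeks (209 and 104 cells). At 12 weeks the shares were 0.997% in MASH and 1.08% in chow (136 and 146 cells). MASH was thus 2.17 times chow at 24 weeks (1.71 to 2.78) and 0.925 times chow at 12 weeks (0.727 to 1.18). Without thinning the shares were 2.53% in MASH and 0.953% in chow at 24 weeks, and 2.26% in MASH and 1.94% in chow at 12 weeks. The 12-week ratio was then 1.16 (0.996 to 1.36), so its direction turned with the depth.

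Mature neutrophils do not divide and resting B cells rarely do, so both classes served as the background. In B-cell-like cells the share was 0.216% in MASH and 0.0702% in chow at 24 weeks, and 0.299% in MASH and 0.161% in chow at 12 weeks. Among neutrophil-like cells it was 0 of 1128 in MASH and 0 of 1060 in chow at 24 weeks, which allows up to 0.266% and 0.283%, and 0 of 178 in MASH and 1 of 56 in chow at 12 weeks. Shares near these levels are read as background.

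Doublet removal took unequal parts of the G2/M-positive cells. Before removal and thinning, 543 cells in MASH and 384 in chow at 24 weeks, and 420 in MASH and 377 in chow at 12 weeks, had at least 3 G2/M members. Called as doublets were 16.8% of these in MASH and 48.4% in chow at 24 weeks, and 18.6% in MASH and 16.4% in chow at 12 weeks. Among all other cells the calls were 10.5% in MASH and 23.5% in chow at 24 weeks, and 11.9% in MASH and 11.8% in chow at 12 weeks. Positive cells were also deeper, with median UMIs of 15118 against 3385 in MASH at 24 weeks and 9670 against 2332 in chow at 24 weeks. With doublets kept, the 24-week ratio of shares was 1.66 in place of 2.17. Kept cells with multiple hashtags numbered 3210 in MASH and 2987 in chow at 24 weeks, and 761 and 829 at 12 weeks. The doublet calls had taken 31.4% of such cells in MASH and 54.1% in chow at 24 weeks. At 12 weeks they had taken 30.69% in MASH and 30.04% in chow. Before removal, G2/M-positive cells with multiple hashtags were 33.7% in MASH and 41.7% in chow at 24 weeks (other cells 23.2% and 23.6%). Whether the kept ones are doublets was not tested. The class ratios of MASH to chow below carry the value with doublets kept in some cases. These are where keeping them turned the ratio of summed G2/M members or moved it by more than 1.5 times.

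Conventional dendritic-cell-like cells were among the classes of highest G2/M share in every library. It was 5.99% (4.53 to 7.74) in MASH and 3.65% (2.01 to 6.04) in chow at 24 weeks, and 2.62% (1.47 to 4.28) in MASH and 2.42% (0.893 to 5.19) in chow at 12 weeks. All of these lie above the B-cell-like share. Immature neutrophil-like cells were led by Camp, Ngp and Ltf. In these cells 6 of 10 immature and 10 of 10 mature neutrophil markers were detected, so they are not read as dividing precursors alone. Their share was 4.31% of 209 cells in MASH at 24 weeks and 9.26% of 54 cells in MASH at 12 weeks, with 4 of 49 cells in chow at 24 weeks and 0 of 34 in chow at 12 weeks. Basophil or mast-cell-like cells gave 3 or 4 positive cells per library, with shares of 2.40% to 3.57%. Plasma-cell-like cells had 6 positive cells of 99 in MASH at 12 weeks and at most 1 in the other libraries.

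Macrophage or Kupffer-cell-like cells were few in chow, and their share was 3.49% of 887 cells in MASH and 0 of 20 cells in chow at 24 weeks, and 1.34% of 595 cells in MASH and 2.74% of 73 cells in chow at 12 weeks. At 12 weeks their G2/M members were summed in UMIs per 1000000 UMIs of the same cells (CPM). The sum was 261 CPM in MASH and 396 CPM in chow (0.658, 0.544 to 0.803), and with doublets kept the ratio was 1.20. Without doublets it came from 1335 UMIs in MASH and 115 in chow. Members thus had enough UMIs to be counted mostly through MASH. Of the 20 members 7 were at least 2-fold lower, against 17% of genes, from which nothing is read. The 15 macrophage markers summed to 1659 CPM in MASH and 96.7 CPM in chow at 24 weeks over all kept cells, with Marco at 0 in chow. At 12 weeks they summed to 1157 CPM in MASH and 196 CPM in chow. T-cell-like cells held 1.17% in MASH and 1.13% in chow at 24 weeks, and 0.879% in MASH and 1.75% in chow at 12 weeks. Natural killer or ILC1-like (NK-like) cells held 1.34% in MASH and 0.653% in chow at 24 weeks, a ratio of 2.06 that was 1.29 with doublets kept, and 0.860% in MASH and 1.35% in chow at 12 weeks.

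**Figure D1:**
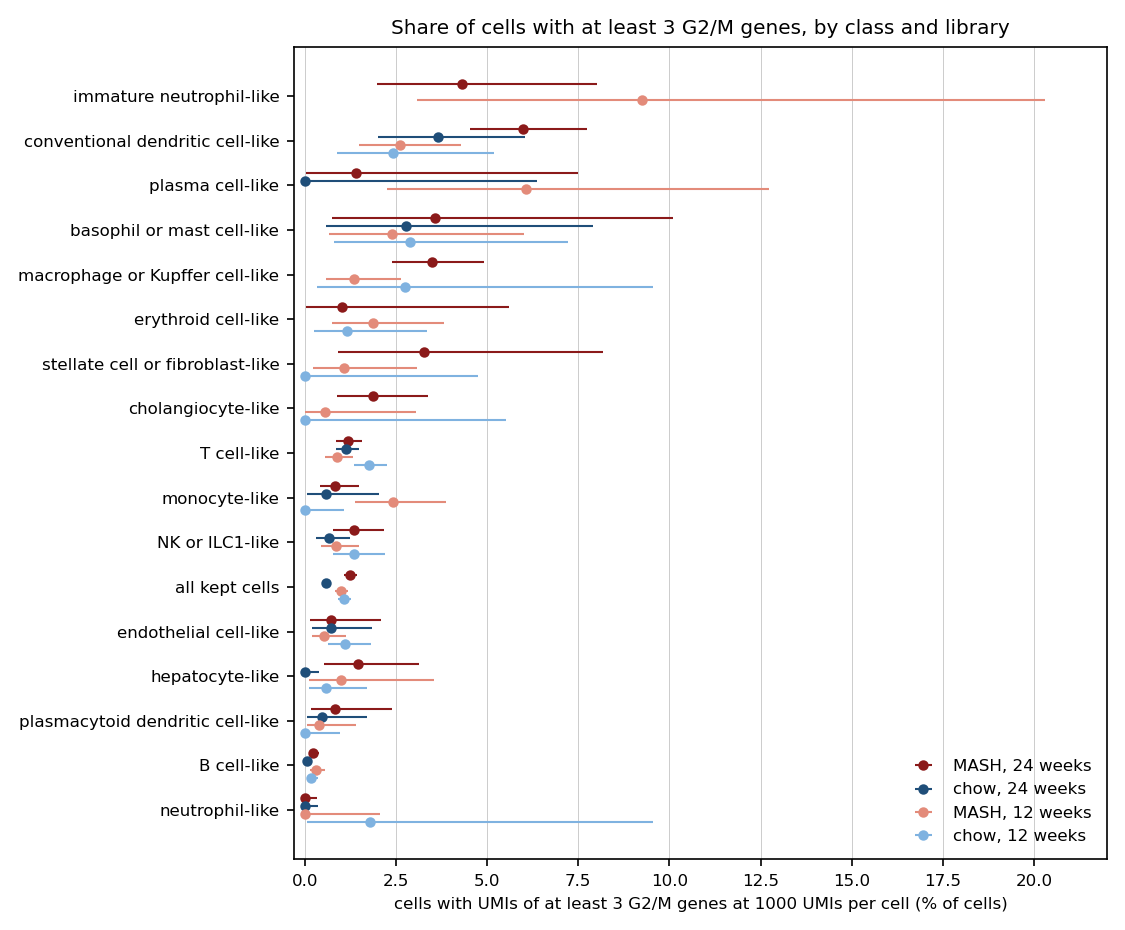
Percent of cells with at least 3 G2/M members after thinning to 1000 UMIs, by cell class and library, with exact 95% binomial intervals on counting error. Dendritic-cell-like cells reach 5.99% in MASH at 24 weeks, and B-cell-like cells at most 0.299% in the 4 libraries.

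The makeup of the G2/M-positive cells differed between the diets. T-cell-like cells supplied 20.1% of the positive cells in MASH and 51.0% in chow at 24 weeks, and 17.6% in MASH and 40.4% in chow at 12 weeks. Dendritic-cell-like cells supplied 25.8% in MASH and 13.5% in chow at 24 weeks, and 11% in MASH and 4.11% in chow at 12 weeks. Macrophage-like cells supplied 14.8% in MASH and none of 104 in chow at 24 weeks, and 5.88% in MASH and 1.37% in chow at 12 weeks. The class sizes moved with this. Dendritic-cell-like cells were 5.11% of kept cells in MASH and 1.86% in chow at 24 weeks, and 3.84% in MASH and 1.56% in chow at 12 weeks. Macrophage-like cells were 5.15% in MASH and 0.0962% in chow at 24 weeks, and 4.22% in MASH and 0.517% in chow at 12 weeks.

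Summed over all kept cells, the 20 G2/M members stood at 318 CPM in MASH and 200.03 CPM in chow at 24 weeks, a ratio of 1.59 (1.55 to 1.62). At 12 weeks they stood at 296 CPM in MASH and 317 CPM in chow, a ratio of 0.935 (0.915 to 0.956). The 14 S members stood at 454 CPM in MASH and 472 CPM in chow at 24 weeks, a ratio of 0.963 (0.948 to 0.978), and at 430.2 CPM in MASH and 544 CPM in chow at 12 weeks, a ratio of 0.790 (0.777 to 0.804). The 24-week chow library was the one that stood apart in G2/M, and the 12-week chow library was the highest in S. The ratio of G2/M to S UMIs was 0.699 in MASH and 0.424 in chow at 24 weeks, and 0.688 in MASH and 0.582 in chow at 12 weeks. Such a sum cannot tell more cycling cells apart from more of this RNA per cell. Averaging the class values with the same class weights in every library gave a G2/M ratio of 1.35 at 24 weeks. Keeping doublets gave 1.45, so both had the same direction with a smaller size. The weighted average includes classes hardly measured in 24-week chow. Among them were macrophage-like cells (20 cells, 3 G2/M UMIs) and stellate or fibroblast-like cells (6 cells, 1 G2/M UMI). The average without such classes was not computed.

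**Figure D2:**
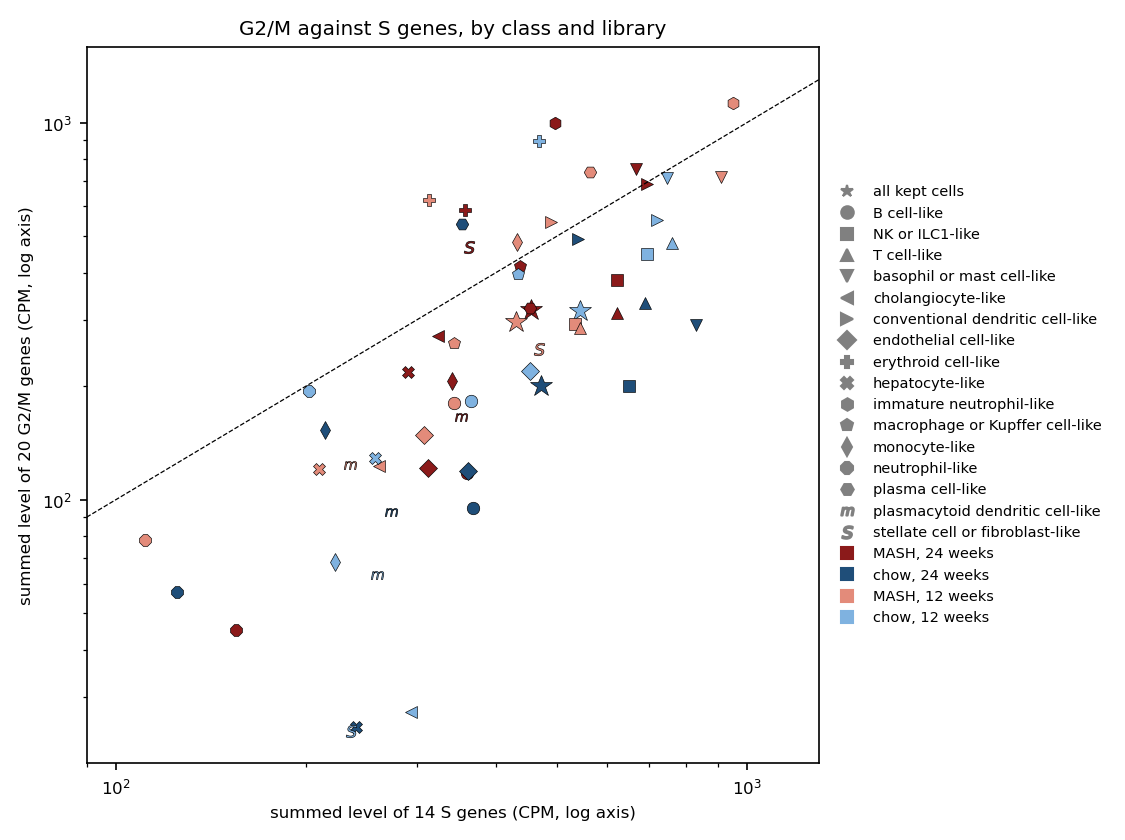
Summed CPM of the 20 G2/M members (vertical, log scale) against the 14 S members (horizontal, log scale) for each cell class. Colours mark the 4 libraries and symbols the classes with at least 50 cells, the dashed line marks equal sums, and immature neutrophil-like cells of both MASH libraries lie above it.

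S and G2/M members were not in the same proportion in every class. Immature neutrophil-like cells had G2/M to S ratios of 2.01 in MASH and 1.98 in chow (49 cells) at 24 weeks, and 1.19 in MASH and 2.91 in chow (34 cells) at 12 weeks. T-cell-like cells had ratios of 0.502 in MASH and 0.481 in chow at 24 weeks, and 0.525 in MASH and 0.628 in chow at 12 weeks. Dendritic-cell-like cells lay between, at 0.988 in MASH and 0.911 in chow at 24 weeks, and 1.12 in MASH and 0.765 in chow at 12 weeks. Erythroid-like cells had 1.64 in MASH and 0.356 in chow (39 cells) at 24 weeks, and 1.99 in MASH and 1.91 in chow at 12 weeks. Cells with at least 3 S members after thinning were 1.36% in MASH and 0.987% in chow at 24 weeks, and 1.00% in MASH and 1.73% in chow at 12 weeks. Without thinning these shares were 13.5% in MASH and 7.13% in chow at 24 weeks, and 11.9% in MASH and 8.86% in chow at 12 weeks, so the 12-week direction turned with the depth. Of the G2/M-positive cells, 74 of 209 in MASH and 47 of 104 in chow at 24 weeks were also S-positive, as were 37 of 136 in MASH and 65 of 146 in chow at 12 weeks.

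How tightly each member marks a cycling cell varied widely. The CPM of each member was compared between kept cells with at least 3 other G2/M members (1190 to 1307 cells, by member) and all remaining cells. The member compared was left out of the choice of cells, which held between 6.03% and 6.6% of all UMIs. Birc5 (survivin, of the chromosomal passenger complex) was 267 times higher in them (238 to 302), with 94.9% of its UMIs there. Ccna2 (cyclin A) was 195 times higher, Cenpf (a kinetochore protein) 193 times, Mki67 79.4 times and Top2a 51.3 times. Among S members, Pclaf (a PCNA-binding repair factor) was 192 times and Rrm2 (a ribonucleotide reductase subunit) 82.4 times higher, whereas Mcm4 was 3.10 times and Pcna (the DNA polymerase clamp) 2.55 times higher. Pcna had 15.3% of its UMIs in these cells, so most of its UMIs lay in other cells.

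Cenpa, the centromeric histone, was the least bound of the G2/M members at 9.28 times. It ranged over the libraries as 13.5 in MASH and 10.98 in chow at 24 weeks, and 7.42 in MASH and 6.87 in chow at 12 weeks. Hmgb2, a chromatin protein, was 7.87 times higher, and Stmn1, a microtubule-destabilising protein, 31.1 times. The D cyclins stood near or below their level in other cells. Ccnd2 stood at 0.597 times (0.572 to 0.623), Ccnd1 at 0.842 times and Ccnd3 at 1.08 times the level in other cells, with Cdk6 at 1.90 times. Ccnd2 was below 1 in each of the 4 libraries, between 0.495 and 0.727. The cells were pooled over classes and not thinned, and the part of class and depth in these ratios was not tested.

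**Figure D3:**
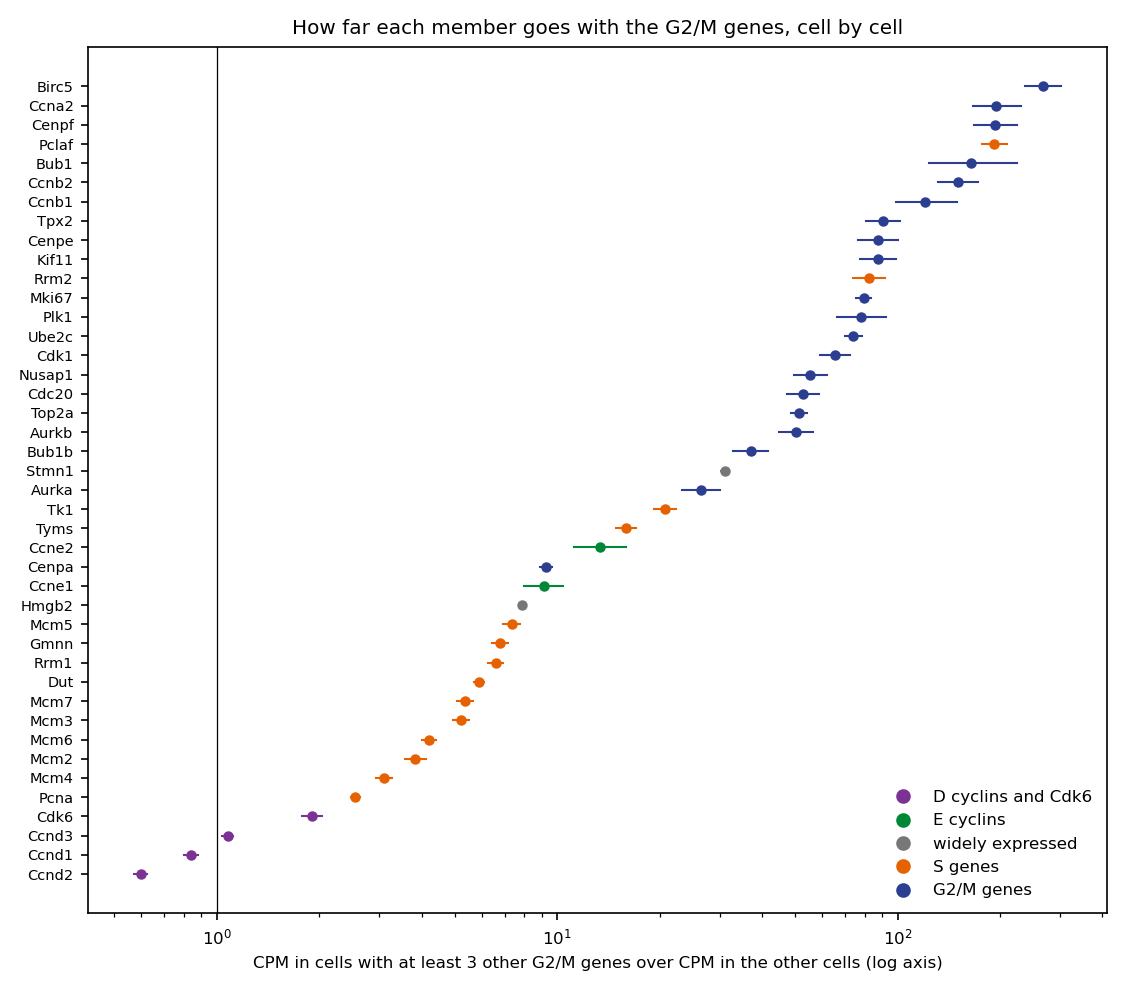
For each member, the ratio of its CPM in cells with at least 3 other G2/M members to its CPM in all remaining kept cells, on a log axis, with 95% counting intervals. Birc5 is the highest at 267 and Ccnd2 the lowest at 0.597.

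Over all kept cells, 4 of the 42 members were at least 2-fold higher in MASH at 24 weeks, namely Cdk1, Ccnb2, Cenpe and Plk1, and none was 2-fold lower. All 42 had the 10 UMIs over both libraries that the count requires. Among all 19059 genes so tested, 16.2% were 2-fold higher and 5.03% lower, so the members’ count was no larger than the background. This count depended on the cells used. With doublets kept none of the 42 reached 2-fold, with only cells of exactly 1 hashtag antibody 10 did, and with median-of-ratios size factors 1 did. With the chow cells of hashtags 5 to 8 alone 17 were 2-fold higher and 1 was lower. The share of all genes was not computed for these settings. The members’ median log2 ratio was 0.56, against 0.07 over all genes. Of the 20 G2/M members 19 lay above 1, the exception being Cenpa at 0.984, while 8 of 14 S members did. At 12 weeks no member was 2-fold different in either direction, against 11.6% of genes higher and 4.21% lower. The median log2 ratio was then −0.17 for the members and −0.01 for all genes, and 4 of 20 G2/M and 0 of 14 S members lay above 1.

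**Figure D4:**
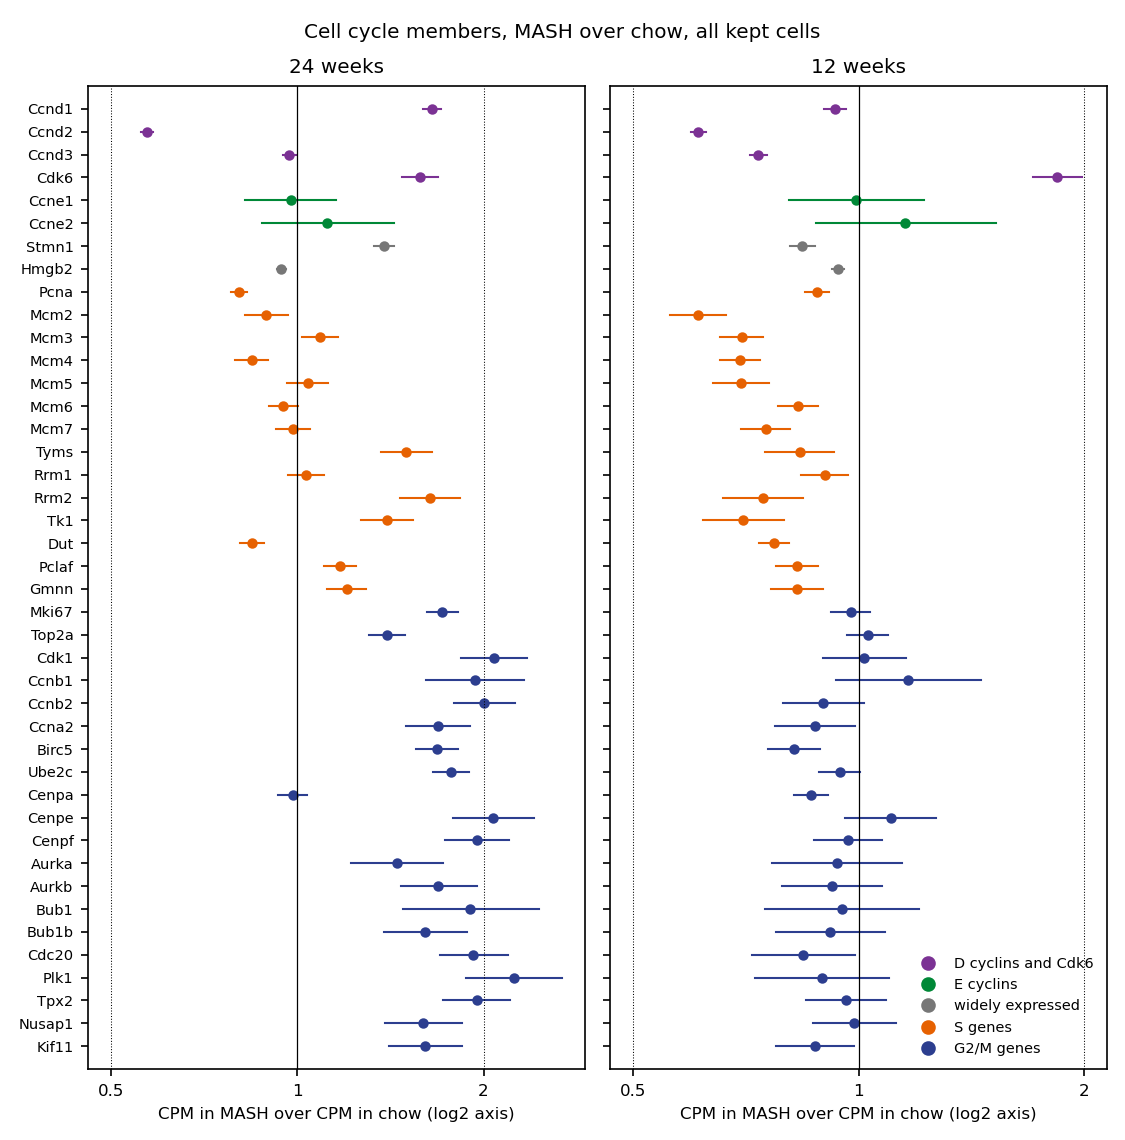
Ratio of CPM in MASH to CPM in chow for each of the 42 members at 24 and 12 weeks (log axis, 95% counting intervals), coloured by role. At 24 weeks 19 of 20 G2/M members lie above 1, and at 12 weeks none of the 14 S members does.

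The 4 that reached 2-fold at 24 weeks act in mitotic entry and chromosome segregation. Cdk1, the kinase that drives mitosis, had 13 CPM in MASH and 6.26 CPM in chow at 24 weeks (ratio 2.08, 1.84 to 2.35), and 9.73 CPM in MASH and 9.56 CPM in chow at 12 weeks. Ccnb2, a B cyclin that activates it, had 14.8 CPM in MASH and 7.37 CPM in chow at 24 weeks (ratio 2.01), and 9.29 CPM in MASH and 10.4 CPM in chow at 12 weeks. Both partners of this kinase complex were thus lowest in chow at 24 weeks. Plk1, a mitotic kinase, had 6.48 CPM in MASH and 2.90 CPM in chow at 24 weeks (ratio 2.24), and 3.49 CPM in MASH and 3.91 CPM in chow at 12 weeks. Cenpe, a kinetochore motor, had 8.45 CPM in MASH and 4.08 CPM in chow at 24 weeks (ratio 2.07), and 8.34 CPM in MASH and 7.56 CPM in chow at 12 weeks. In all 4 the 24-week chow library was the lowest of the series, and the 12-week libraries lay closer together.

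Of the 5 G2/M members of most UMIs, Mki67, Ube2c, Top2a and Birc5 were lowest in 24-week chow and Cenpa was not. Mki67 had 47.6 CPM in MASH and 27.7 CPM in chow at 24 weeks (ratio 1.72, 1.62 to 1.82), and 41.7 CPM in MASH and 42.7 CPM in chow at 12 weeks (0.976). Ube2c, the ubiquitin-conjugating enzyme of the anaphase-promoting complex, had 38 CPM in MASH and 21.5 CPM in chow at 24 weeks (1.77), and 35.3 CPM in MASH and 37.5 CPM in chow at 12 weeks (0.943). Top2a had 31.4 CPM in MASH and 22.5 CPM in chow at 24 weeks (1.39), and 39.2 CPM in MASH and 38.1 CPM in chow at 12 weeks (1.03). For Mki67 and Ube2c the 3 other libraries lay close together above 24-week chow. Birc5 had 26.8 CPM in MASH and 15.9 CPM in chow at 24 weeks (1.68), and 21.1 CPM in MASH and 25.8 CPM in chow at 12 weeks (0.819). Cenpa had 38.4 CPM in MASH and 39.0 CPM in chow at 24 weeks (0.984, and 1.05 with cells of exactly 1 hashtag), and 48.9 CPM in MASH and 56.6 CPM in chow at 12 weeks (0.864). The remaining 11 G2/M members had ratios of 1.45 to 1.95 at 24 weeks and of 0.844 to 1.16 at 12 weeks.

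S members of most UMIs did not share the 24-week difference. Pcna had 111 CPM in MASH and 137 CPM in chow at 24 weeks (0.807, 0.783 to 0.832), and 109 CPM in MASH and 124 CPM in chow at 12 weeks (0.880). Dut, a dUTPase that keeps uracil out of DNA, had 53.4 CPM in MASH and 63.2 CPM in chow at 24 weeks (0.845), and 59.7 CPM in MASH and 77.3 CPM in chow at 12 weeks (0.772). Mcm4 had 27.5 CPM in MASH and 32.5 CPM in chow at 24 weeks (0.845), and 34.1 CPM in MASH and 49.1 CPM in chow at 12 weeks (0.695). These 3 were lower in MASH at both weeks. Mcm6 had 36.3 CPM in MASH and 38.2 CPM in chow at 24 weeks (0.951), and 36.3 CPM in MASH and 43.7 CPM in chow at 12 weeks (0.830). Pclaf had 34.7 CPM in MASH and 29.6 CPM in chow at 24 weeks (1.17, and 0.990 with the chow cells of hashtags 1 to 4), and 31.7 CPM in MASH and 38.3 CPM in chow at 12 weeks (0.828). The S members with the highest 24-week ratios were Rrm2 (1.64), Tyms (thymidylate synthase, 1.5) and Tk1 (thymidine kinase, 1.40), which make nucleotides. They had 52.9% to 85.3% of their UMIs in unthinned cells with at least 3 G2/M members. Pclaf had 93.1% of its UMIs there, with the lower ratio of 1.17.

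D cyclins and Cdk6, which act at entry into the cycle, differed from each other in direction. Ccnd2 had 152 CPM in MASH and 266 CPM in chow at 24 weeks (ratio 0.572, 0.559 to 0.586), and 202 CPM in MASH and 329.6 CPM in chow at 12 weeks (0.612, 0.597 to 0.626). Cdk6 had 35.6 CPM in MASH and 22.5 CPM in chow at 24 weeks (1.58, 1.48 to 1.69), and 39.8 CPM in MASH and 21.7 CPM in chow at 12 weeks (1.84, 1.71 to 1.98). Both MASH libraries were thus below both chow libraries for Ccnd2 and above both for Cdk6. Ccnd3 had 182 CPM in MASH and 188 CPM in chow at 24 weeks (0.972, and 1.10 with the chow cells of hashtags 1 to 4), and 173 CPM in MASH and 236 CPM in chow at 12 weeks (0.735). Ccnd1 had 148 CPM in MASH and 89.5 CPM in chow at 24 weeks (1.65, 1.60 to 1.71), and 134 CPM in MASH and 144 CPM in chow at 12 weeks (0.930).

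Within T-cell-like cells the opposite differences of Ccnd2 and Cdk6 were present at both weeks. In T-cell-like cells Ccnd2 had 345 CPM in MASH and 537 CPM in chow at 24 weeks, and 385 CPM in MASH and 520.3 CPM in chow at 12 weeks. Cdk6 in the same cells had 46.2 CPM in MASH and 25.4 CPM in chow at 24 weeks (1.82, 1.60 to 2.07), and 45.6 CPM in MASH and 21.9 CPM in chow at 12 weeks (2.08, 1.78 to 2.45). In NK-like cells Cdk6 had 57.3 CPM in MASH and 26.7 CPM in chow at 24 weeks (2.14), and 53.3 CPM in MASH and 20.4 CPM in chow at 12 weeks (2.62). In B-cell-like cells Cdk6 lay lower in MASH, at 13.5 CPM in MASH and 16.1 CPM in chow at 24 weeks (0.844, 0.698 to 1.02), and 12.3 CPM in MASH and 17.5 CPM in chow at 12 weeks (0.705, 0.544 to 0.913). The 24-week interval includes 1.

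Ccnd1 was highest in plasmacytoid dendritic-cell-like cells in 3 libraries and in cholangiocyte-like cells in MASH at 24 weeks. Plasmacytoid dendritic-cell-like cells had 727 CPM in MASH and 1001 CPM in chow at 24 weeks, and 1073 CPM in MASH and 1318 CPM in chow at 12 weeks. Cholangiocyte-like cells had 815 CPM in MASH and 531 CPM in chow at 24 weeks (44 cells), and 509.9 CPM in MASH and 473 CPM in chow at 12 weeks. T-, NK- and B-cell-like cells had 3.25 to 8.56 CPM. Hepatocyte-like cells had 294 CPM in MASH and 27.7 CPM in chow at 24 weeks (10.6, 8.36 to 13.6), and 65.3 CPM in MASH and 16.6 CPM in chow at 12 weeks (3.92, 2.41 to 6.50). With doublets kept these ratios were 11.1 and 2.64.

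E cyclins, the partners of Cdk2, differed little between the diets. Ccne1 had 4.01 CPM in MASH and 4.11 CPM in chow at 24 weeks, and 3.63 CPM in MASH and 3.65 CPM in chow at 12 weeks. Ccne2 had 2.12 CPM in MASH and 1.90 CPM in chow at 24 weeks, and 2.28 CPM in MASH and 1.98 CPM in chow at 12 weeks. The intervals of these ratios of MASH to chow include 1. Of the widely expressed genes, Hmgb2 had 367 CPM in MASH and 389 CPM in chow at 24 weeks (0.944), and 385 CPM in MASH and 409 CPM in chow at 12 weeks (0.939). Stmn1 had 102 CPM in MASH and 73.7 CPM in chow at 24 weeks (1.38), and 86.0 CPM in MASH and 102 CPM in chow at 12 weeks (0.842).

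Within T-cell-like cells the whole-library difference at 24 weeks was not seen. Their G2/M members stood at 312 CPM in MASH and 332 CPM in chow at 24 weeks (0.940, 0.902 to 0.979), and at 285 CPM in MASH and 478 CPM in chow at 12 weeks (0.596, 0.570 to 0.624). At 24 weeks none of the 42 members was 2-fold higher or lower in these cells, against 7.36% of genes higher and 3.69% lower. The 24-week ratio was 1.06 with only cells of exactly 1 hashtag, and 0.807 or 1.47 with the chow cells of hashtags 1 to 4 or 5 to 8 alone, so it had no stable direction. At 12 weeks 6 of 20 G2/M members (Ccnb2, Birc5, Cenpf, Bub1b, Cdc20 and Nusap1) and the S members Rrm2 and Tk1 were at least 2-fold lower, against 4.34% of genes. T-cell-like cells formed 3 clusters. In the cluster led by Icos, Cd40lg and Ctla4 the G2/M share was 2.04% in MASH and 1.93% in chow at 24 weeks, and 1.33% in MASH and 1.72% in chow at 12 weeks. The cluster led by Cd8b1, Cd8a and Tcf7 had 1.44% in MASH and 1.34% in chow at 24 weeks, and 0.477% of 1259 cells in MASH and 2.01% of 695 cells in chow at 12 weeks. A cluster led by Cd40lg, Cxcr6, Ifng and the heat-shock gene Hspa1b was mostly of 24-week cells, with 0.425% in MASH and 0.610% in chow at 24 weeks.

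NK-like cells differed in opposite directions at the 2 times, and this difference between times was not tested. Their G2/M members stood at 383 CPM in MASH and 201 CPM in chow at 24 weeks (1.91, 1.76 to 2.08), and at 292 CPM in MASH and 448 CPM in chow at 12 weeks (0.652, 0.606 to 0.702). At 24 weeks 12 of 20 G2/M members were at least 2-fold higher in MASH, against 4.9% of genes, among them Ube2c at 46.3 CPM in MASH and 16.8 CPM in chow. At 12 weeks 7 of 20 (Cdk1, Ccnb2, Birc5, Ube2c, Cenpe, Plk1 and Kif11) were at least 2-fold lower, against 3.48%. The 24-week difference was larger in the cluster led by Gzma, Klra8 and Prf1, with 867 CPM in MASH and 225 CPM in chow. There 10 of 307 cells in MASH and 5 of 758 cells in chow were G2/M-positive. The cluster led by Gzmc, Ncr1 and Xcl1 had 236 CPM in MASH and 178 CPM in chow at 24 weeks. With doublets kept the NK-like ratio was 1.84 at 24 weeks.

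**Figure D5:**
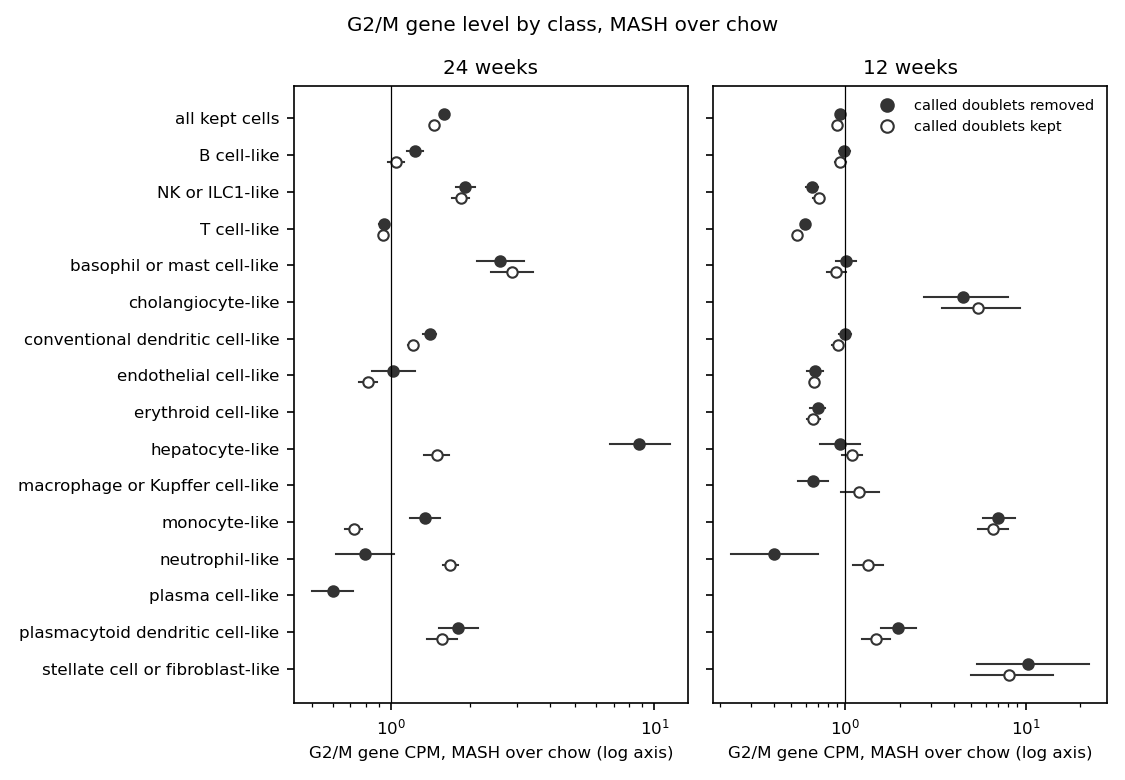
Ratio of summed G2/M CPM in MASH to chow within each cell class with at least 50 cells in both libraries, at 24 and 12 weeks (log axis, 95% counting intervals), with called doublets removed (filled) or kept (open). With doublets removed T-cell-like cells lie at 0.940 and 0.596, and NK-like cells at 1.91 and 0.652.

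In dendritic-cell-like cells the G2/M members stood at 687 CPM in MASH and 491 CPM in chow at 24 weeks (1.40, 1.32 to 1.48), and at 545 CPM in MASH and 550.2 CPM in chow at 12 weeks (0.991). At 24 weeks 19 of 20 were above 1 and none reached 2-fold, against 5.48% of genes. Their S members stood at 695 CPM in MASH and 539.5 CPM in chow at 24 weeks (1.29), and at 489 CPM in MASH and 719 CPM in chow at 12 weeks (0.680). Pclaf in these cells had 109 CPM in MASH and 73.7 CPM in chow at 24 weeks, and 67.0 CPM in MASH and 100.4 CPM in chow at 12 weeks. With doublets kept the 24-week G2/M ratio was 1.21, and with only cells of exactly 1 hashtag it was 2.20.

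Monocyte-like cells had 206 CPM of G2/M members in MASH and 153 CPM in chow at 24 weeks (1.35, 1.18 to 1.54), and 483 CPM in MASH and 68.3 CPM in chow at 12 weeks (7.06, 5.80 to 8.69). At 24 weeks 4 of 20 G2/M members and 9 of 14 S members were at least 2-fold higher in MASH, against 8.51% of genes. At 12 weeks 18 of 20 G2/M members were, against 7.14% of genes. The G2/M members had 2124 UMIs in MASH and 262 in chow at 24 weeks, and 2330 in MASH and 103 in chow at 12 weeks. The S members had 3506 in MASH and 367 in chow at 24 weeks. Members thus reached the 10 UMIs of the count mostly through MASH, and nothing is read from these counts. At 12 weeks 16 of 664 cells in MASH and 0 of 342 cells in chow were G2/M-positive. Mki67 there had 61.5 CPM in MASH and 9.95 CPM in chow, and Top2a had 59.9 CPM in MASH and 5.31 CPM in chow. Markers of immature neutrophils moved with this. The 10 of them summed within monocyte-like cells to 1105 CPM in MASH and 59.1 CPM in chow at 24 weeks, and to 2401 CPM in MASH and 386 CPM in chow at 12 weeks. In chow, 8 of the 10 were above 0 at 24 weeks (Camp and Ms4a3 at 0) and 7 at 12 weeks (Camp, Ngp and Ltf at 0), and in MASH all 10 were at both weeks. Prtn3, an early granulocyte protease, was among the leading genes of the cluster. Their part in the result was not tested. With doublets kept the ratio of G2/M members was 0.721 at 24 weeks, which turns its direction, and 6.55 at 12 weeks. The 24-week ratio also lay below 1 with cells of exactly 1 hashtag (0.921) and with the chow cells of hashtags 1 to 4 (0.819), and was 2.29 with those of hashtags 5 to 8.

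Among the liver’s own cells, the G2/M members differed between diets by class and week. Hepatocyte-like cells had 218 CPM in MASH and 24.9 CPM in chow at 24 weeks (8.75, 6.77 to 11.4), and 121 CPM in MASH and 129 CPM in chow at 12 weeks (0.937, 0.722 to 1.21, and 1.09 with doublets kept). Of 413 thinned cells in MASH 6 were G2/M-positive at 24 weeks, and of 973 in chow none was, which allows up to 0.308%. With doublets kept the 24-week ratio was 1.49, so the size of this ratio depended on the doublet calls. Of the 20 G2/M members 16 reached 10 UMIs over both 24-week libraries, mostly through MASH, so their number past 2-fold is not read. Ube2c had 34.5 CPM in MASH and 1.04 CPM in chow. Before thinning, 12 hepatocyte-like cells in MASH at 24 weeks were G2/M-positive. Their markers of 7 immune cell types summed to 1630 CPM, against 1812 CPM in the other 607. At 12 weeks these markers summed to 2776 CPM in the 4 positive cells of MASH and 1620 CPM in the other 424, and to 856 CPM in the 5 positive cells of chow and 1470 CPM in the other 1349. Hepatocyte markers summed in positive cells to 46401 CPM against 51596 CPM in MASH at 24 weeks. At 12 weeks they summed to 29380 CPM against 56621 CPM in MASH, and 23466 CPM against 32427 CPM in chow. Positive cells had median UMIs of 2899.5 against 1407 in MASH at 24 weeks. At 12 weeks these were 3321 against 954.5 in MASH and 1253 against 829 in chow. The part of markers and depth in the result was not tested.

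Cholangiocyte-like cells, of the bile duct lining, had 271 CPM of G2/M members in MASH and 12.5 CPM in 44 cells of chow at 24 weeks, and 123 CPM in MASH and 27.3 CPM in chow at 12 weeks (4.49, 2.72 to 7.96). At 12 weeks these were 290 G2/M UMIs in MASH and 16 in chow, and the 10 members with enough UMIs to be counted reached them mostly through MASH, so no count past 2-fold is read. Of 539 thinned cells in MASH at 24 weeks 10 were G2/M-positive, as was 1 of 181 in MASH at 12 weeks. Mki67 in these cells had 52.0 CPM in MASH at 24 weeks and 18.6 CPM in MASH at 12 weeks. Cells named by stellate or fibroblast markers (Dcn, Col3a1, Col1a1; 10 of 13 detected) matched the mesothelial markers more strongly (6 of 6 detected). These cells had 467 CPM of G2/M members in MASH at 24 weeks, and only 6 such cells were in chow at that week. Before thinning, 8 of them in MASH at 24 weeks were G2/M-positive. Their median was 46443.5 UMIs, against 11791 in the other 118 cells. Immune markers summed to 5483 CPM in those 8, against 2524 CPM in the other 118. At 12 weeks the class had 251 CPM of G2/M members in MASH and 24.4 CPM in chow (10.3, 5.38 to 22.5). Of its thinned cells 3 of 281 in MASH and 0 of 76 in chow were G2/M-positive. These were 902 G2/M UMIs in MASH and 9 in chow, and the 18 members with enough UMIs reached them through MASH. All 14 S members had enough UMIs at 12 weeks, likewise mostly through MASH, and 7 were at least 2-fold higher in MASH, against 9.7% of genes, from which nothing is read. Immune markers within the 13 unthinned positive cells of MASH at 12 weeks summed to 6170 CPM, against 3235 CPM in the other 276 cells, and those 13 had a median of 32277 UMIs. The part of these markers in the result was not tested.

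Other classes gave smaller numbers of cells. Basophil or mast-cell-like cells had 755 CPM of G2/M members in MASH and 290.4 CPM in chow at 24 weeks (2.60, 2.12 to 3.20), and 716 CPM in MASH and 712 CPM in chow at 12 weeks (1.01, and 0.889 with doublets kept). The 24-week direction turned with a coarser clustering, which gave 0.302, and cells of exactly 1 hashtag gave 3.98. Endothelial-like cells had 121 CPM in MASH and 119 CPM in chow at 24 weeks (1.02, with 0.818 when doublets were kept and 1.57 with cells of exactly 1 hashtag), and 148 CPM in MASH and 219.5 CPM in chow at 12 weeks (0.676, 0.608 to 0.751). At 12 weeks 8 of their 20 G2/M members were at least 2-fold lower, against 4.12% of genes, and 19 had enough UMIs to be counted. Plasmacytoid dendritic-cell-like cells had 166 CPM in MASH and 92.7 CPM in chow at 24 weeks (1.79, 1.51 to 2.13), and 124 CPM in MASH and 63.3 CPM in chow at 12 weeks (1.957). The 24-week ratio was 4.38 or 2.92 with the chow cells of hashtags 1 to 4 or 5 to 8 alone. Their G2/M-positive shares lay between 0% and 0.820% and rested on at most 3 cells a library. Clusters that mixed markers of several types, or had too few, were left unnamed and are not described.

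Between the weeks, the chow libraries differed more in G2/M members than the MASH libraries. Within chow, G2/M members at 24 weeks stood at 0.631 times (0.616 to 0.647) and S members at 0.866 times their 12-week level, and the G2/M-positive share at 0.529 times (0.407 to 0.685). Within MASH the corresponding ratios were 1.07 (1.05 to 1.09), 1.06 and 1.24 (0.997 to 1.55). None of the 20 G2/M members was above 1 in chow, and Cenpf and Kif11 (a spindle motor) were at least 2-fold lower, against 9.18% of genes. Cdc20, the activator of the anaphase-promoting complex, was the member at least 2-fold higher in MASH, at 11.4 CPM at 24 weeks and 5.55 CPM at 12 weeks (2.05), against 10.6% of genes. By class, NK-like cells in chow stood at 0.447, hepatocyte-like cells in chow at 0.193 and T-cell-like cells in chow at 0.695 times their 12-week G2/M level. Monocyte-like cells in chow stood at 2.24 times and plasmacytoid dendritic-cell-like cells in chow at 1.46 times. The other named classes with 50 cells in both chow libraries lay below 1, between 0.292 and 0.893. These class ratios between weeks were not computed with doublets kept. Before thinning, doublet calls took 48.4% of G2/M-positive cells in chow at 24 weeks and 16.4% in chow at 12 weeks. Dendritic-cell-like cells in MASH had G2/M-positive shares of 5.99% at 24 weeks and 2.62% at 12 weeks (2.29, 1.27 to 4.36), and monocyte-like cells in MASH had 0.826% at 24 weeks and 2.41% at 12 weeks (0.343, 0.144 to 0.786).

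The libraries used 8 hashtags each at 24 weeks and 3 each at 12 weeks. Their values are given only as spread within a library. The G2/M-positive share ranged over hashtags between 0.545% and 2.13% in MASH and between 0.272% and 0.768% in chow at 24 weeks. At 12 weeks it ranged between 0.694% and 1.20% in MASH and between 0.785% and 1.43% in chow. The ranges of the diets overlapped at both weeks. For T-cell-like cells the ranges were 0% to 2.36% in MASH and 0.343% to 1.67% in chow at 24 weeks. At 12 weeks they were 0.322% to 1.85% in MASH and 1.31% to 2.29% in chow. These ranges of the diets also overlapped at both weeks.

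Genes of the same pathway outside the members were read from wider lists. All 42 genes of a wider G2/M list had 10 UMIs over both libraries at each week. At 24 weeks 7 of these (Nuf2, Ttk, Hmmr, Psrc1, Anln, Gas2l3 and Kif20a) were at least 2-fold higher in MASH and none lower, a share near the 16.2% of all genes. Their median log2 ratio was 0.45, against 0.07 over all genes. At 12 weeks Gas2l3, a microtubule and actin linker, was the gene of the list past 2-fold, with a list median of −0.06. Gas2l3 had 6.19 CPM in MASH and 1.39 CPM in chow at 24 weeks (4.44), and 5.48 CPM in MASH and 2.09 CPM in chow at 12 weeks (2.62). The list’s genes of most UMIs differed less. Jpt1 had 227 CPM in MASH and 208 CPM in chow at 24 weeks, and 224 CPM in MASH and 229 CPM in chow at 12 weeks, and Tubb4b, a tubulin, had ratios of 1.06 and 0.721.

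None of the 36 wider S genes was past 2-fold at either week, and their median log2 ratios were 0.10 at 24 weeks and −0.26 at 12 weeks. Slbp, which binds histone messenger RNA, had ratios of 0.837 and 0.814, and Usp1, a deubiquitinase of DNA repair, had ratios of 0.895 and 0.846. Among 14 inhibitors of the cycle, 3 were at least 2-fold higher in MASH at 24 weeks, namely Cdkn1a (p21), Cdkn2a and Cdkn2b, a share not far from the 16.2% of all genes. Cdkn1a had 65.1 CPM in MASH and 28.8 CPM in chow at 24 weeks (2.26), and 108 CPM in MASH and 76.2 CPM in chow at 12 weeks (1.42). Cdkn2b had 2.36 CPM in MASH and 0.626 CPM in chow at 24 weeks (3.77), and 2.91 CPM in MASH and 1.72 CPM in chow at 12 weeks (1.69). Btg1 and Btg2, the antiproliferative genes of most UMIs in the list, had 24-week ratios of 0.773 and 0.942. Of 11 E2F factors and partners none was past 2-fold, E2f4 had ratios of 1.18 and 0.806, and Tfdp2 had ratios of 1.11 and 1.05.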

How the data were processed

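The authors deposited UMI counts per gene and cell barcode of 10x 5′ libraries, counted with Cell Ranger 5.0.1 or, for MASH at 12 weeks, Cell Ranger 4, per the file headers. The mm10 and GRCh38 builds are named in the submitters' processing notes with no role given. The deposited 12-week MASH matrix held all 737280 barcodes and its barcode list of 19014 did not match those columns, so its cells were taken from the counts alone (19091 columns had at least 500 UMIs). Barcodes shared between the 24-week libraries numbered 732, about the 739 that the kit's barcode list gives. No column of per-sample values was left unused.

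Doublets were called with Scrublet in scanpy 1.11.5 (Python 3.11.15) and removed (10.6% of cells in MASH and 23.8% in chow at 24 weeks, 12.1% in MASH and 11.9% in chow at 12 weeks). Kept UMIs totalled 87193629 in MASH and 55921989 in chow at 24 weeks, and 65355554 in MASH and 42990609 in chow at 12 weeks. Cells were clustered on 2000 variable genes without cycle genes, with 30 components, 15 neighbours and Leiden resolution 1. Clusters were named by marker genes and compared where both libraries had at least 50 cells. Levels are summed counts over the total UMIs of the cells, as CPM. Intervals are 95% exact Poisson, Clopper-Pearson or conditional binomial (scipy 1.17.1), and a count of 0 was set to 3. A gene was counted as higher or lower at 2-fold or more with at least 10 UMIs over both libraries. The rule was checked on simulated data.

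Genes were named by a rule: the D cyclins, Cdk6, E cyclins, Stmn1 and Hmgb2, the 5 S and 5 G2/M members of most UMIs, and any past 2-fold the same way at both weeks (none). Others named in a count of few were chosen after their values were seen. The members and lists were chosen with earlier results of these data known. Alternatives changed the doublet step, cell filter, hashtags, scaling, class weights, thinning, thresholds and clustering.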

Additional observations from a re-analysis of the deposited data

Results flagged for a closer look

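In 10 results the ratio of MASH to chow lay above 1 at one time and below 1 at the other, with 95% counting intervals clear of 1 at both. Only results that met this rule are listed, and the number looked at is not set beside the 10. Each time had 1 library a group, so the difference between the times was not tested.

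The G2/M members over all kept cells stood at 1.59 at 24 weeks and 0.935 at 12 weeks, and in NK-like cells at 1.91 and 0.652. The members Ccnd1 (1.65 at 24 weeks and 0.930 at 12 weeks), Birc5 (1.68 and 0.819), Stmn1 (1.38 and 0.842) and Pclaf (1.17 and 0.828) had the same order. S members had it in dendritic-cell-like cells (1.29 and 0.680), hepatocyte-like cells (1.21 and 0.813) and neutrophil-like cells (1.24 and 0.551). In basophil or mast-cell-like cells the order of the S members was the opposite, with 0.804 at 24 weeks and 1.22 at 12 weeks.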

How the results depend on the processing

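At 24 weeks the G2/M ratio of MASH to chow (1.59) lay above 1 under every alternative run. It was 1.45 with doublets kept, 1.84 with cells of exactly 1 hashtag, 2.02 with chow hashtags 5 to 8, 1.51 with median-of-ratios size factors and 1.35 with the same class weights. The ratio of G2/M to S members (1.65) was 1.51, 1.91, 1.74 with chow hashtags 1 to 4, 1.99 with hashtags 5 to 8, and 1.42 with the same class weights. The S ratio (0.963) was 0.923 with chow hashtags 1 to 4, 1.02 with hashtags 5 to 8 and 0.914 with size factors. The G2/M-positive share ratio (2.17) was 1.66 with doublets kept, 1.65 with at least 5 genes and 1.60 when thinned to 2000 UMIs. Members at least 2-fold higher (4) numbered 0 with doublets kept, 10 with exactly 1 hashtag, 2 with a stricter cell filter, 17 with chow hashtags 5 to 8 (and 1 lower), and 1 with size factors. The T-cell-like G2/M ratio (0.940) was 1.06 with exactly 1 hashtag, 0.807 and 1.47 with chow hashtags 1 to 4 and 5 to 8, and 1.01 at Leiden resolution 0.5.

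At 12 weeks the G2/M ratio (0.935) was 0.893 with doublets kept and 0.831 with the same class weights, the S ratio (0.790) was 0.821 with those weights, and the ratio of G2/M to S (1.18) was 1.14 and 1.01. The share ratio (0.925) was 0.652 when thinned to 2000 UMIs. Without thinning it was 1.16 (0.996 to 1.36), so its direction turned with the depth. The T-cell-like ratio (0.596) was 0.541 with doublets kept, 0.626 with size factors and 0.632 at Leiden resolution 0.5. The alternatives for weeks and single classes were chosen after seeing the data. Of 24 weeks over 12 weeks, the MASH G2/M ratio (1.07) was 1.10, 1.14 with exactly 1 hashtag and 1.04 with size factors, and the MASH S ratio (1.06) was 1.08 and 1.02. The chow G2/M ratio (0.631) was 0.678, 0.568 and 0.649, and the chow S ratio (0.866) was 0.890 with size factors. Of the class ratios at least 2-fold from 1, those that crossed 1 were the neutrophil-like G2/M ratio at 12 weeks (0.403), at 1.33 with doublets kept and 1.40 at Leiden resolution 0.5, and the basophil or mast-cell-like ratio at 24 weeks (2.60), at 0.302 at that resolution. Class ratios nearer to 1 crossed it too, 20 of 106 values in all with those above. Among them were the monocyte-like ratio at 24 weeks (1.35), at 0.721 with doublets kept, the macrophage-like ratio at 12 weeks (0.658), at 1.20, the neutrophil-like ratio at 24 weeks (0.794), at 1.68 and at 2.12 with Leiden resolution 0.5, and the plasma-cell-like ratio at 24 weeks (0.599), at 12.1 with that resolution. The cause was not tested. Of 144 values for single members, 108 moved by less than their counting interval. No paired analysis was possible because each group has 1 library. Depth limits the rare classes, where a share rests on few positive cells.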
